A study of Homo sapiens with 8 samples.

Results

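The 5 genes described here encode the D-type cyclins CCND1, CCND2 and CCND3 and the G-type cyclins CCNG1 and CCNG2. These 5 of 20037 protein-coding genes of the RefSeq annotation were chosen by name with the lists of bound intervals already known, so their selection rests on the positions and ranks of intervals near them. The lists come from ChIP-seq, in which DNA bound by a protein is enriched with an antibody, here one against RFX7 itself, and sequenced. The cells were U2OS, an established line from a human osteosarcoma. Cells had received 10 µM Nutlin-3a, which keeps MDM2 from binding p53 and so stabilises p53, or its solvent DMSO, each for 24 h. Each treatment had 2 RFX7 samples and 2 input samples, and 1 merged list of bound intervals (peaks) per treatment was analysed. Values of single replicates and of the input samples were not analysed here, so no value below has a replicate error and no difference between the treatments was tested.

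D-type cyclins are the regulatory subunits of CDK4 and CDK6. The kinase complexes phosphorylate the retinoblastoma protein RB and so release E2F factors, which drives cells from G1 into S phase. G-type cyclins are unusual members of the family: they associate with B′ subunits of protein phosphatase 2A, and CCNG2 is known for high levels in cells that have left the cycle, while CCNG1 is a classical target gene of p53. RFX7 belongs to the regulatory factor X proteins, which bind DNA at the X-box, an inverted repeat.

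Intervals were placed by their midpoints, as inside a gene, within 5 kb of either end, or up to 300 kb away. Each interval has a fold enrichment and a −log10 q given by the authors, and both serve here only to rank intervals within their own list. The Nutlin-3a list held 304 intervals and the DMSO list 213. The read depth behind them is unknown.

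In the Nutlin-3a list, 3 of the 5 genes, CCND1, CCND2 and CCNG2, had an interval inside or within 5 kb. Among all 20037 protein-coding genes this held for 222, or 1.11%. In the DMSO list CCND2 and CCNG2 had one, 2 of 5, whereas 59 protein-coding genes, or 0.294%, did so. CCND3 and CCNG1 had none in either list. The genes were selected with these lists in view, so nothing is read from the distance between the members' counts and the shares over all genes.

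Because the promoter of CCNG2 lies under one of the strongest intervals and that of CCND3 under none, their sequences are shown here with those of the CDK4 and CDKN2D promoters, which are also under Nutlin-3a intervals (values given further on). RefSeq promoter windows, build GRCh38.p14, reach from 250 bases before to 50 bases after a transcription start. They matched 3 of the 5 genes, with 3 windows for CCND3, 2 for CCNG1 and 1 for CCNG2. The unmatched genes are CCND1 and CCND2. Each line runs 5′ to 3′ on the gene's strand and ends before the start site. Capitals mark 3 forms of an arm of the X-box: GTTGCC is the first, the second differs from it in ending as GTTGCT, and the third is written GTTACC. Both strands were searched, so an arm on the other strand is read in reverse complement.
CCNG2 (chr4:77156957-77157202, plus strand, under a Nutlin-3a interval): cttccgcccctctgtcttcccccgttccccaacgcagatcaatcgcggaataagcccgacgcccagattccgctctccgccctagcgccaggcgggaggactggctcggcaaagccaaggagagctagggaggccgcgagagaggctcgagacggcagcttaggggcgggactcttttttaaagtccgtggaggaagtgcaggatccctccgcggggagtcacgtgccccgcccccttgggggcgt
CCND3 (chr6:41941809-41942058, minus strand, no interval): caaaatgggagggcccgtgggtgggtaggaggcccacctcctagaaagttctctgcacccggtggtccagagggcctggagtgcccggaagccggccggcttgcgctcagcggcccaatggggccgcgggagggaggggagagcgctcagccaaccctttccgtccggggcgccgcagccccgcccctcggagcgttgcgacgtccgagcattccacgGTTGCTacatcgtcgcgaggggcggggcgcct
CDK4 (chr12:57752385-57752560, minus strand, under a Nutlin-3a interval): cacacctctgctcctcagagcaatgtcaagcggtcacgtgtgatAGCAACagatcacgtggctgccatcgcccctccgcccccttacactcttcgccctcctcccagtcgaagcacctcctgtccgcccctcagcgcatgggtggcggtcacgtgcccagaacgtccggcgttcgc
CDKN2D (chr19:10569120-10569229, minus strand, under a Nutlin-3a interval): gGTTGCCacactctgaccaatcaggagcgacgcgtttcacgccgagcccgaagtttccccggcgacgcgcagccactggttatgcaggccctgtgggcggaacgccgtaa

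The CCNG2 stretch held none of the arms, and neither did the rest of its window. The CCND3 window held 1 GTTGCT, with its first base 32 bases before the start. Its other 2 windows and both CCNG1 windows held none. The CDK4 stretch held AGCAAC, the reverse complement of the second form. In the CDKN2D stretch GTTGCC lay next to the upstream edge. The rest of the CDKN2D window held GGCAAC, the reverse complement of GTTGCC, 128 bases before the start and outside the interval. PPP2R5D, a further gene described below, had 25 bases of its window under a Nutlin-3a interval, all past the start. That window is not shown and held none of the arms. Of 35116 RefSeq promoter windows, 12.2% held the first form, 12.8% the second and 6.46% the third, and 27.8% held at least 1 of them. Of 146 windows that a Nutlin-3a interval overlapped by at least 1 bp, 59.6% held at least 1. By form, 28.1% of the 146 held the first, 39.0% the second and 2.74% the third, the last a smaller share than among all windows. Of 13 windows that a DMSO interval overlapped, 84.6% held at least 1 arm. The CCNG2 window, with 141 bases under a DMSO interval, is among these 13. The arms are part of the palindromic X-box, which was also searched in full, on both strands. None of the 6 windows of the cyclin genes matched it with up to 4 mismatches over its 14 bases. The CDK4 and CDKN2D windows each matched it with 4 mismatches, and the PPP2R5D window came no closer than 6. A match with up to 4 mismatches was found in 12.0% of all windows and in 24.0% of the 146 overlapped by a Nutlin-3a interval. Among the 13 windows overlapped by a DMSO interval, 0 had such a match. A match or its lack describes only the letters in these windows. The intervals extend beyond them, and their remaining sequence was not used here.

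CCNG2 occupies chromosome 4, 77157207 to 77170060, on the plus strand. Its main Nutlin-3a interval, at 77156530 to 77157202, had fold enrichment 8.73 (rank 23 of 304) and −log10 q 37.47 (rank 24). The interval ended 5 bp before the transcription start at 77157207 and covered 246 bases of the promoter window. A second Nutlin-3a interval, 77157263 to 77157594, lay inside the gene, with fold enrichment 4.22, −log10 q 7.74 and rank 193 by −log10 q, the measure behind every rank below unless fold enrichment is named. The start site thus fell in a gap of 60 bp between a high-ranking interval and one in the lower part of the list.

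The DMSO list held 1 interval at CCNG2, at 77156709 to 77157097. Its fold enrichment of 3.49 ranked 35 of 213 and its −log10 q of 3.15 ranked 55. All 389 bp of it lay inside the main Nutlin-3a interval, 57.8% of whose width it covered, and the midpoints were 37 bp apart. RefSeq places the lncRNA gene LOC101928864, at 77154754 to 77158064, across this start, so all 3 intervals also had their midpoints inside that gene. No other interval of either list lay within 300 kb, a window that holds 3 other protein-coding genes. One of these is CCNI, another cyclin gene, at 77047155 to 77075989. The nearer end of CCNI was 80877 bp from the midpoint of the main Nutlin-3a interval.

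**Figure D1:**
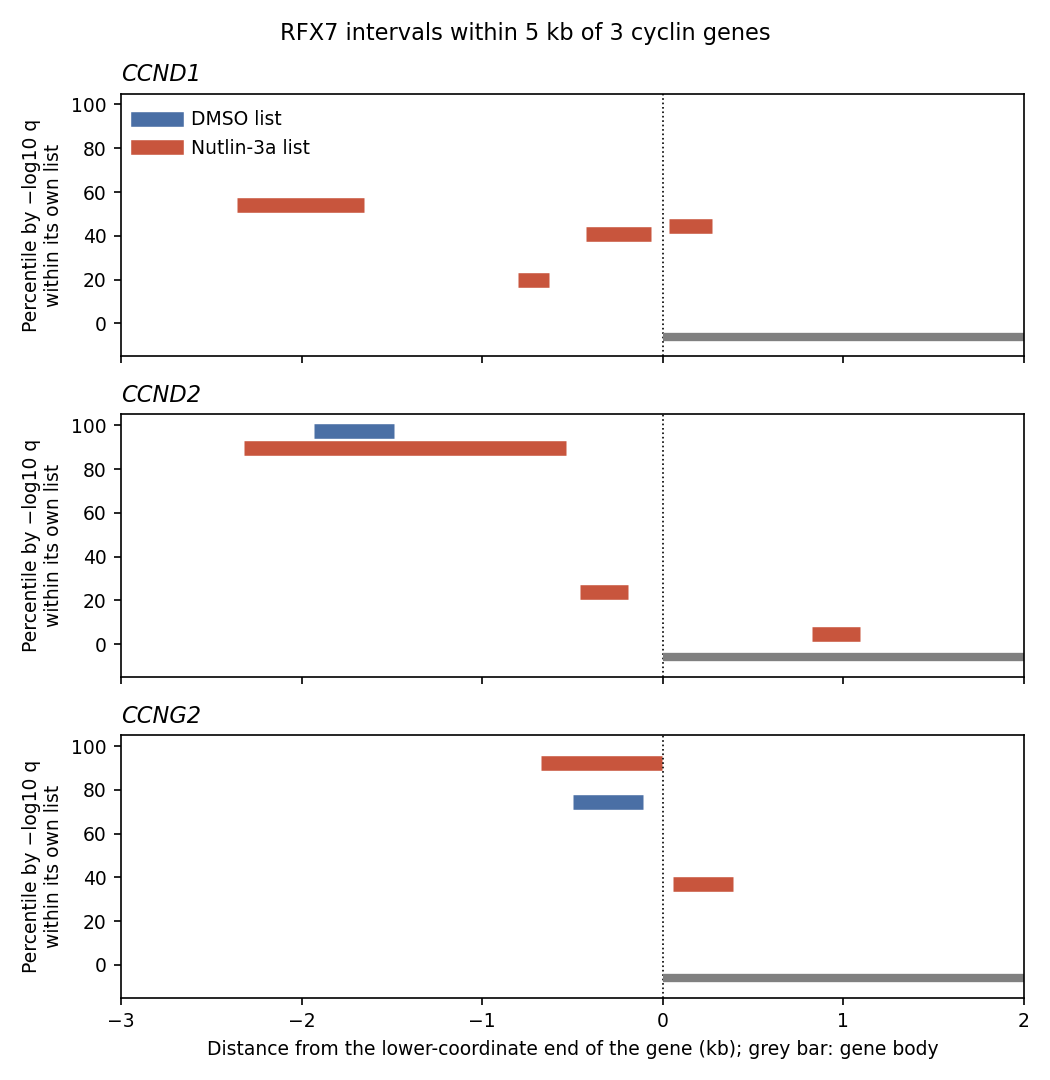
RFX7 intervals within 5 kb of CCND1, CCND2 and CCNG2, drawn to scale against the distance in kb from each gene's lower-coordinate end (dotted line), with height giving the percentile by −log10 q within the interval's own list. CCND1 shows 4 Nutlin-3a intervals and no DMSO interval, while the DMSO intervals at CCND2 and CCNG2 lie within the span of the highest Nutlin-3a interval there.

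CCND2, at chromosome 12, 4273762 to 4305353, had 3 Nutlin-3a intervals within 5 kb. The widest, 1785 bp at 4271442 to 4273226, had fold enrichment 6.74 and −log10 q 30.42. The latter ranked 33 of 304, the former 77. The next, at 4273305 to 4273569, followed after 78 bp and ranked 232 with a −log10 q of 6.16. The last, at 4274588 to 4274855, lay inside the gene and was among the lowest of the list, rank 291 with a −log10 q of 2.97. The lower end of CCND2 fell in a gap of 1018 bp between these last intervals, 193 bp beyond the nearer one.

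One DMSO interval, 443 bp at 4271831 to 4272273, lay wholly inside the widest Nutlin-3a interval and covered 24.8% of it. Its fold enrichment was 3.93 and its −log10 q of 7.16 ranked 7 of 213. The midpoint lay 1710 bp from the lower end of CCND2, and 282 bp from the midpoint of the Nutlin-3a interval. CCND2-AS1, an antisense lncRNA gene at 4248767 to 4276184, contains the midpoints of all these intervals. Its RefSeq starts on the minus strand, at 4275477 and 4276184, lay at least 755.5 bp from the nearest midpoint. The intervals therefore cannot be assigned to CCND2 rather than CCND2-AS1 from position alone.

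A second group of intervals stood far from any protein-coding gene. At 4029877 to 4032494 the Nutlin-3a list had an interval of 2618 bp with its midpoint 242576.5 bp from CCND2. By −log10 q, 64.99, it was number 2 of the list, but by fold enrichment, 9.35, number 17. A pair of smaller intervals lay beside it. The first, at 4032982 to 4033239, ranked 176 with a −log10 q of 8.68, and the second, at 4033333 to 4033519, ranked 165 with one of 9.55. The DMSO list had a single interval here, 469 bp at 4031205 to 4031673, which was number 2 of 213 with −log10 q 10.30 and fold enrichment 4.03. It covered 17.9% of the wide Nutlin-3a interval. PARP11 has the nearest protein-coding gene end, 157786.5 bp from the Nutlin-3a midpoint and so closer than CCND2, and the lncRNA gene LINC03141 ends 4527.5 bp away. On the other side of CCND2, which holds TIGAR, a p53 target gene that encodes a regulator of glycolysis, no interval of either list was found up to 300 kb.

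**Figure D2:**
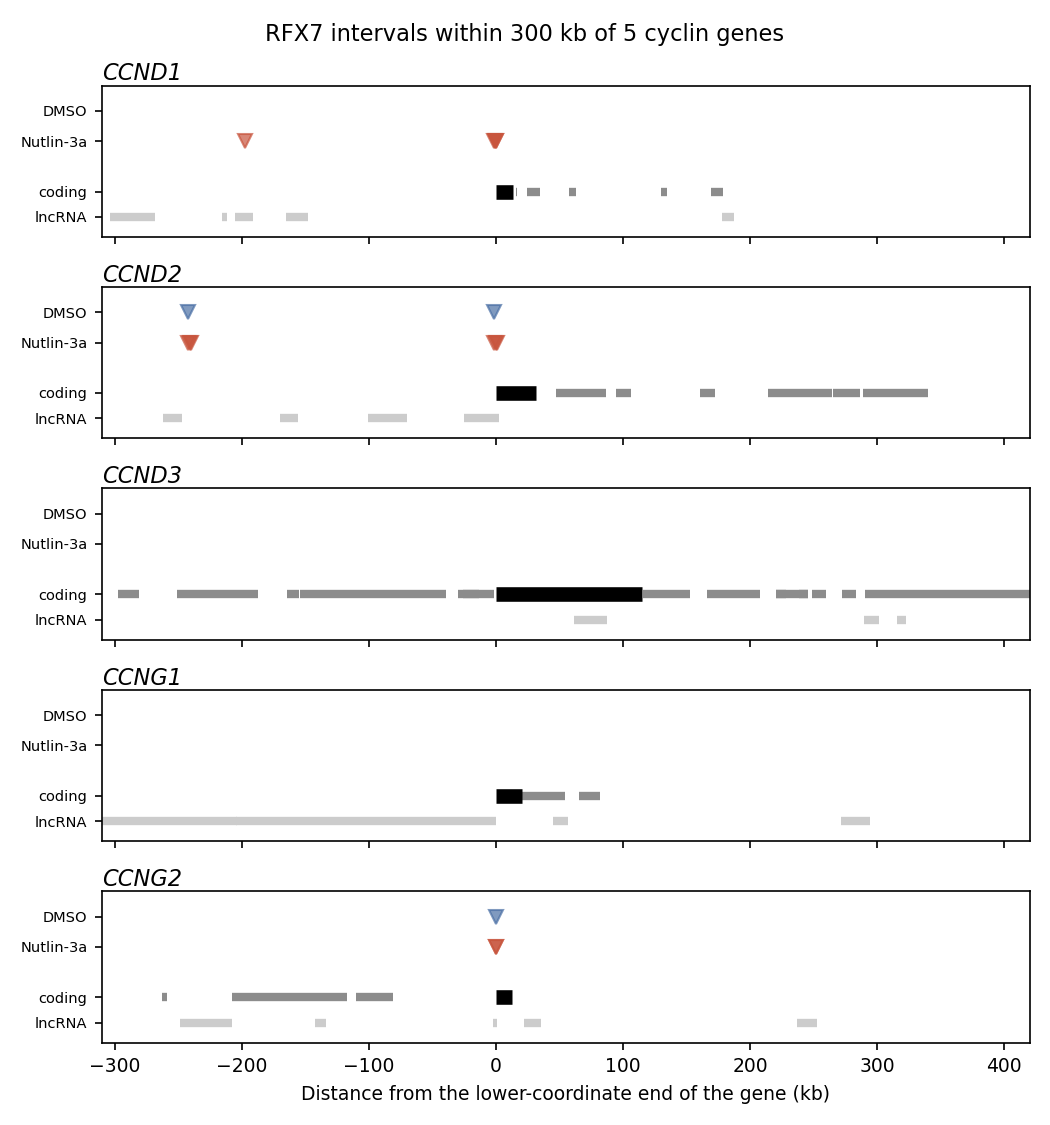
Midpoints of RFX7 intervals (triangles, DMSO list above Nutlin-3a list) within 300 kb of the 5 cyclin genes, against distance in kb from the gene's lower-coordinate end. Black bars are the cyclin genes, dark grey bars other protein-coding genes and light grey bars lncRNA genes; the CCND3 and CCNG1 rows hold no triangle.

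CCND1, at chromosome 11, 69641156 to 69654474, was the 1 member with an interval in the Nutlin-3a list and none in the DMSO list. The nearest DMSO midpoint on the chromosome was 4153461 bp away. Within 5 kb it had 4 Nutlin-3a intervals, spread over 2629 bp. From the outside in, the first lay at 69638799 to 69639500, with fold enrichment 4.71, −log10 q 11.10 and rank 141 of 304. The following one, at 69640352 to 69640525, was 174 bp wide and the weakest, with fold enrichment 3.72, −log10 q 5.24 and rank 245. Next to the gene's lower end lay 69640731 to 69641089, with fold enrichment 4.34, −log10 q 8.40 and rank 181. Inside the gene lay 69641192 to 69641427, with fold enrichment 4.47, −log10 q 9.08 and rank 170. The highest rank of the 4 was thus 141, whereas the main intervals at CCND2 and CCNG2 ranked 33 and 24. The gene's lower end lay in a gap of 102 bp between the last 2. None of the 4 overlapped a DMSO interval. This held for 282 of all 304 Nutlin-3a intervals, or 92.8%, so it does not set CCND1 apart.

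An interval farther out, 69443251 to 69443762, ranked higher than those at the gene. Its fold enrichment was 5.87 and its −log10 q 20.14, rank 79. Its midpoint was 197649.5 bp from CCND1, inside the lncRNA gene LINC02952 and 1316.5 bp from an end of another, LOC124902703. Among protein-coding genes MYEOV came closest, with an end at 146219.5 bp. This interval had no counterpart in the DMSO list, as was the case for 92.8% of all Nutlin-3a intervals. Because the depth of both lists is unknown, less binding at CCND1 after DMSO and fewer calls in that list cannot be told apart.

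CCND3, at chromosome 6, 41934933 to 42050035, had no interval of either list within 300 kb although its window holds 17 other protein-coding genes, the most of the 5 windows. The nearest Nutlin-3a midpoint was 934674.5 bp from the gene and the nearest DMSO midpoint 25829213 bp. CCNG1, at chromosome 5, 163437571 to 163457640, likewise had none. Its nearest DMSO midpoint was 1051199 bp away, and its nearest Nutlin-3a midpoint 12796607.5 bp. At the unknown depth of the lists, a gene without a called interval cannot be told apart from one bound below the calling threshold.

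Across the 5 genes, 13 Nutlin-3a intervals lay within 300 kb, 4.28% of that list. They comprised 5 at CCND1, 6 at CCND2 and 2 at CCNG2, and 9 of the 13 were inside or within 5 kb. In the DMSO list there were 3, or 1.41%, of which 2 were at CCND2 and 1 at CCNG2. Genes with an interval within 300 kb were again 3 of 5 and 2 of 5, while over all protein-coding genes 11.0% had a Nutlin-3a interval in that range and 2.52% a DMSO interval. Sites in both lists numbered 3, which is 100% of the DMSO intervals near these genes and 23.1% of the Nutlin-3a intervals. Of the whole lists, 22 of 213 DMSO intervals, or 10.3%, and 22 of 304 Nutlin-3a intervals, or 7.24%, overlapped one of the other list. The genes were chosen with these overlaps known, so nothing is read from the difference. A site in both lists within 5 kb was found at 2 of the 5 genes, against 17, or 0.0848%, of all protein-coding genes. The midpoint farthest out within the 5 kb limit was 2006.5 bp from CCND1, and the nearest beyond it was the one 197649.5 bp away, so no interval stood near that limit. At the 300 kb limit, the outermost midpoint inside was the one 242576.5 bp from CCND2, and the nearest outside was 934674.5 bp from CCND3.

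**Figure D3:**
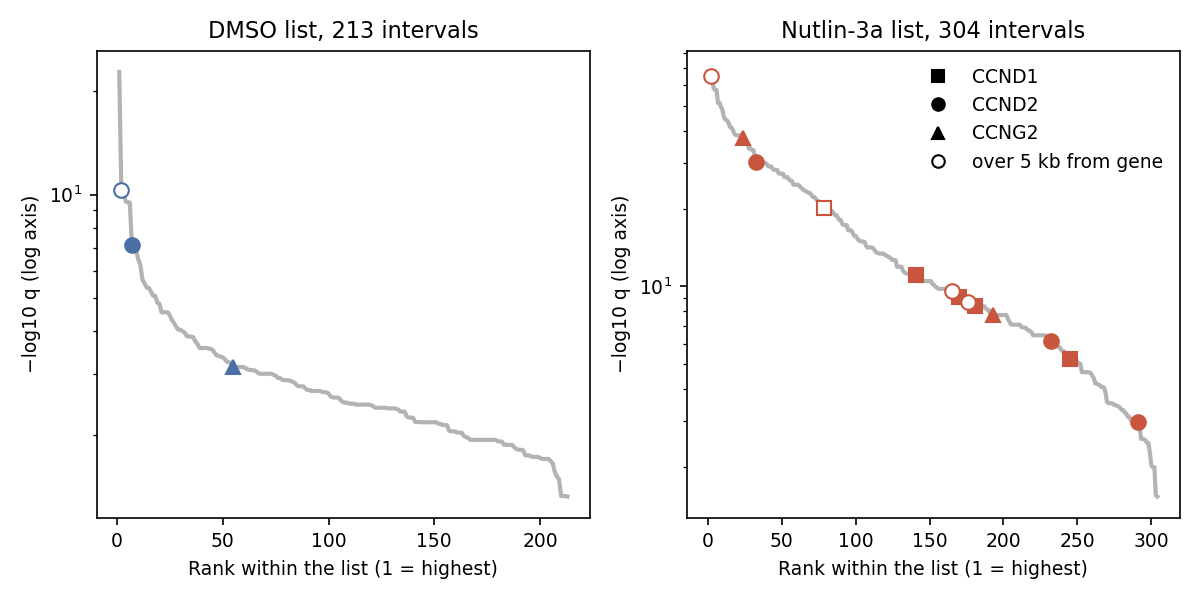
The −log10 q (log axis) of every interval against its rank in the DMSO list (213 intervals) and the Nutlin-3a list (304 intervals), as grey lines, with those near CCND1, CCND2 and CCNG2 marked and open symbols for intervals over 5 kb from the gene. The DMSO intervals rank 2, 7 and 55, and the Nutlin-3a intervals extend from rank 2 to rank 291.

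Within a locus, strong and weak intervals stood side by side. The Nutlin-3a intervals near these genes had a median −log10 q of 9.08, beside 10.16 for the whole list, and a median fold enrichment of 4.34, beside 4.71. Of the 13, 5 were at or above the list's 50th percentile by −log10 q. They were the main intervals at CCNG2 and CCND2, the distant one at CCND1, the wide distant one at CCND2 and the outermost of the 4 at CCND1. The remaining 8 ranked between 165 and 291 and lay beside a stronger interval or, at CCND1, beside one another. The 3 DMSO intervals had a median −log10 q of 7.16, beside 2.49 for the whole list. Each of them lay under the highest-ranking Nutlin-3a interval of its site, and none matched a side interval. The genes were chosen with these ranks known, so nothing is read from the differences between these medians and those of the whole lists.

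Several intervals close together were a shared feature of the 3 genes. These genes were chosen with their intervals known, so nothing is read from their counts beside those of other genes. Of 20037 protein-coding genes, 222 had at least 1 Nutlin-3a interval within 5 kb. Of these 222 genes, 30 had at least 2 such intervals, and CCND1, CCND2 and CCNG2 were among the 30. At least 4 were found for 4 genes, CCND1 and, named after their values were seen, PMEPA1, RHOB and TNRC18. Of 46 neighbouring pairs within 1 kb in the Nutlin-3a list, 5 were within 5 kb of the cyclin genes, and 2 more belonged to the distant group on the CCND2 side that is nearer to PARP11. The gap between the intervals held a protein-coding gene end in 3 of the 46 pairs, 2 of them at CCND1 and CCNG2. When rows within 1 kb were joined, CCND1 and CCNG2 each kept 1 interval within 5 kb and CCND2 kept 2. The gap of 1018 bp at CCND2 was just over the joining limit, and the interval inside the gene ranked 291 of 304. After joining, 7 protein-coding genes had at least 2 intervals and 0 had at least 3. The number of intervals at a gene therefore depends on where the authors' calls were split, and whether the gaps hold less RFX7 was not tested.

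**Figure D4:**
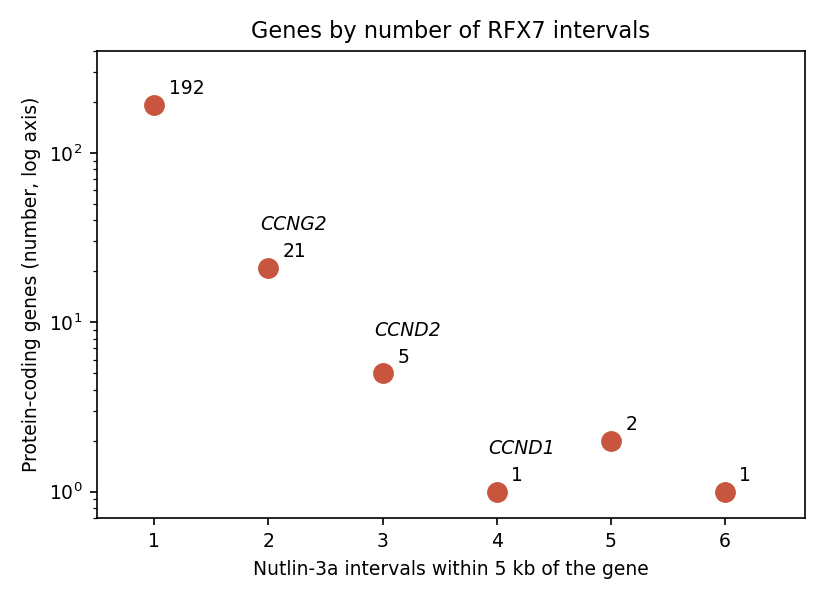
Number of protein-coding genes (log axis) with each number of Nutlin-3a intervals inside or within 5 kb, for the 222 genes with at least 1. CCNG2 is among 21 genes with 2, CCND2 among 5 with 3, and CCND1 is the single gene with 4.

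The partners of these cyclins were then examined with 2 lists of genes. None of 24 other cyclin genes had an interval within 5 kb in either list. Over all protein-coding genes 1.11% had a Nutlin-3a interval that close and 0.294% a DMSO interval, so this count does not set the 24 apart. Within 300 kb, 3 of the 24, or 12.5%, had a Nutlin-3a interval, beside 11.0% of all protein-coding genes. One of these 3 is CCNI, counted through the intervals at CCNG2. In the DMSO list 1 of the 24, or 4.17%, had an interval in that range, again CCNI through CCNG2, beside 2.52% of all protein-coding genes. Of 39 genes of the cyclin, CDK and RB machinery, 3 had a Nutlin-3a interval within 5 kb, 7.69% beside 1.11% of all protein-coding genes, and 0 a DMSO interval. Within 300 kb the Nutlin-3a count was 7 of 39, or 17.9%, and the DMSO count 1 of 39, or 2.56%. Over all protein-coding genes these shares were 11.0% and 2.52%. At a −log10 q of at least 10, 1 of the 3 genes with a Nutlin-3a interval within 5 kb remained. Both lists of genes were chosen with earlier results of these data known, so nothing is read from the distance between their shares and those over all genes.

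CDK4, the kinase that D-type cyclins activate, had the strongest of the 3. Its interval, at chromosome 12, 57752385 to 57752693, had fold enrichment 6.24, −log10 q 18.88 and rank 86 of 304. The midpoint lay 229 bp before the start of the gene, and the interval covers the AGCAAC shown above. CDKN2D encodes p19, an inhibitor of CDK4 and CDK6. It had an interval at chromosome 19, 10569120 to 10569314, with fold enrichment 4.59, −log10 q 9.77 and rank 156, centred 238 bp before the gene. PPP2R5D, a B′ subunit gene of protein phosphatase 2A, had one at chromosome 6, 42984595 to 42984824, just inside the gene. With fold enrichment 3.60, −log10 q 4.65 and rank 253, it was the weakest of the 3. The RB gene itself, CDK6, CDKN1A and MDM2 had no interval of either list within 300 kb. Such an absence is common, as 11.0% of all protein-coding genes had a Nutlin-3a interval in that range and 2.52% a DMSO interval. Nothing is therefore read from it. None of the 3 intervals overlapped a DMSO interval, as was the case for 282 of all 304 Nutlin-3a intervals, or 92.8%, so this count does not set these genes apart.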

How the data were processed

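RFX7 ChIP-seq and input DNA of U2OS cells were labelled as 8 samples in 4 groups of 2. Per the submitters' processing notes, the tools included Trimmomatic 0.39, cutadapt 2.10, SAMtools 1.10, Picard, MACS2 2.2.7.1 and bedtools 2.29.2, and the build was hg38. Settings, aligner and the way replicates were merged are not given in the sources used here. The deposited lists give each interval a fold enrichment, a −log10 q and a score, and the authors' score repeats the −log10 q and was not used. Deposited positions were converted to 1-based.

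Distances were computed in Python 3.11.15 from interval midpoints to gene boundaries of RefSeq GRCh38.p14. That table gives no strand, exon or UTR, so strand and start sites came from the RefSeq promoter windows. Intervals overlapping by at least 1 bp were called shared. Distances, overlaps and sequence searches were checked on simulated data. Genes named are the 5 cyclin genes, genes of the 2 lists (24 other cyclin genes, and 39 genes of the cyclin, CDK and RB machinery) with an interval within 5 kb, and genes next to intervals. RB1, CDK6, CDKN1A, MDM2, CCNI and TIGAR were named in addition. The members and lists were chosen with earlier results of these data known, and no test was made. Alternatives changed distances, the minimum −log10 q, ranking, overlap and joining.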

Additional observations from a re-analysis of the deposited data

How the results depend on the processing

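For 19 results, 58 values were recomputed under alternatives, and 41 stayed close to the reported ones. Close meant within 1.5 times the reported count or, for ranks, within the 95% Wilson interval of the percentile. That interval served only as a tolerance, because a rank within a whole list is not an estimate from a sample. At a minimum −log10 q of 10, the Nutlin-3a intervals within 300 kb numbered 5 in place of 13, the DMSO intervals 1, the sites in both lists 1, the cyclin genes with a DMSO interval within 5 kb 0, and the list genes with a Nutlin-3a interval 1. At or above the list median, the Nutlin-3a intervals numbered 5 and the list genes 1. Joining rows within 1 kb left 6 Nutlin-3a intervals. Within 1 kb, 1 cyclin gene had a DMSO interval. With starts of the promoter table, which matched CCND3, CCNG1 and CCNG2, 1 cyclin gene had a Nutlin-3a and 1 a DMSO interval. Sites in both lists numbered 1 under 50% overlap of both intervals and 1 with midpoints within 100 bp. Up to 5 mismatches, 2 windows of the cyclin genes matched the X-box, in place of 0. Ranked by fold enrichment, the main CCND2 Nutlin-3a interval stood at percentile 75.0 in place of 89.5, its neighbour at 16.4 in place of 24.0, and the CCNG2 DMSO interval at 84.0 in place of 74.6. The 3 genes with a Nutlin-3a interval within 5 kb were 3 under every other distance and −log10 q setting run.

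No paired analysis was possible because the 2 replicates of a treatment stand merged in 1 list, and leaving out a replicate was not run. Unknown depth limits what counts, widths and −log10 q can say between the lists.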
